A study of Homo sapiens with 47 samples.

Results

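The miR-181 family was followed through small RNA sequencing of 2 human prostate cancer cell lines kept at graded O2 levels. Its members were 8 of the 1006 microRNA (miRNA) entries of the count table. They were chosen by name, with earlier results of these data known. Arms cut from the 5′ side of the hairpin (5p) were hsa-miR-181a-5p, hsa-miR-181b-5p, hsa-miR-181c-5p and hsa-miR-181d-5p. Arms cut from the 3′ side (3p) were hsa-miR-181a-3p, hsa-miR-181a-2-3p, hsa-miR-181b-3p and hsa-miR-181c-3p. The species prefix is left out below. PC3 is an androgen receptor-negative line that the labels trace to a bone metastasis. 22Rv1 (named p22rv1 in the labels) expresses the androgen receptor and is traced there to a xenograft, a subline of CWR22R. Both lines grew in RPMI-1640 with 10% serum, and the hypoxia groups spent 24 h in a chamber at 5, 2, 1, 0.5, 0.2 or 0% O2. Each level had its own normoxia group (95% air). There were 24 PC3 and 23 22Rv1 libraries in 24 groups, with 2 libraries in each but 1, since a single 22Rv1 control was at hand for 0.2% O2. The labels call the treatments duplicates without naming their source. Spread among duplicates could be purely technical, and every p-value rests on it except those for line differences in ratios. Each line is a single established line, and a difference between PC3 and 22Rv1 is a difference between these lines only.

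A miRNA hairpin is cut from a longer primary transcript by Drosha and then by Dicer into a short duplex. One strand of the duplex, the guide, is loaded into an Argonaute protein and finds target transcripts through its seed, while the other strand is mostly degraded. In the miR-181 family the 5p strand is the usual guide and the 3p strand the usual passenger, although passenger strands can be loaded too. The family is known for its part in lymphocyte development and has been studied in many cancers.

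The 4 guide strands are printed first because they share their seed. Bases 2 to 8, the seed, are in capitals, and all 8 mature sequences were matched in RefSeq (GRCh38.p14).
miR-181a-5p: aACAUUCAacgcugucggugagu
miR-181b-5p: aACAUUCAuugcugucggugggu
miR-181c-5p: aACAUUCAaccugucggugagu
miR-181d-5p: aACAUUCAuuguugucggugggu
The seed is identical in all 4. In the reference it is also found in miR-4262, for which no entry was used here. Positions are counted from 1 at the 5′ end. miR-181b-5p differs from miR-181a-5p by 3 substitutions (A9U, C10U, A21G). miR-181d-5p differs from miR-181b-5p by 1 substitution, C12U. miR-181c-5p is the sequence of miR-181a-5p with 1 base left out, at position 11. How reads that match 2 of these sequences were divided is not given in the sources used here, so the split between miR-181b-5p and miR-181d-5p, and between miR-181a-5p and miR-181c-5p, carries that uncertainty.

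The 3p strands are printed because their seeds differ and because both members whose hypoxia effect differed between the lines are among them.
miR-181a-3p: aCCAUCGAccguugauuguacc
miR-181a-2-3p: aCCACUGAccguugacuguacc
miR-181b-3p: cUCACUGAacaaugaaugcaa
miR-181c-3p: aACCAUCGaccguugaguggac
miR-181a-3p and miR-181a-2-3p have the same length of 22 bases and differ by 3 substitutions (U5C, C6U, U16C), of which U5C and C6U lie in the seed. miR-181c-3p carries 1 extra base at its 5′ end, and its next 15 bases are the first 15 bases of miR-181a-3p. Its seed is therefore shifted by 1 base and has other letters.

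The hairpins lie in 3 pairs. MIR181A1 (chr1:198859044-198859153, minus strand) and MIR181B1 (chr1:198858873-198858982, minus strand) are 61 bases apart in an intron of the long non-coding RNA gene MIR181A1HG. MIR181A2 (chr9:124692442-124692551, plus strand) and MIR181B2 (chr9:124693710-124693798, plus strand) are 1158 bases apart in an intron of MIR181A2HG, on the strand opposite to NR6A1. MIR181C (chr19:13874699-13874808, plus strand) and MIR181D (chr19:13874875-13875011, plus strand) are 66 bases apart, within an intron of NANOS3 on the same strand. Positions are on GRCh38 (RefSeq hairpins, genes from GENCODE 29). The deposited tables themselves carry no positions. The hairpins of MIR181A1, MIR181A2 and MIR181C are given with both mature arms in capitals, because the 3p arm of each reports on 1 hairpin alone.
MIR181A1: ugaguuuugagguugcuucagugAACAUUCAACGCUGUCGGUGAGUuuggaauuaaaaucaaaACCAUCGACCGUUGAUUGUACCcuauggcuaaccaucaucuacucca
MIR181A2: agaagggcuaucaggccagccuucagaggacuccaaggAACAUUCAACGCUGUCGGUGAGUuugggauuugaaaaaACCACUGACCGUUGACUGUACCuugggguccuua
MIR181C: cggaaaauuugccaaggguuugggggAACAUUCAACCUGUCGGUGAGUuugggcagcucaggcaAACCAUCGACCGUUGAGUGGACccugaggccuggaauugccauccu
miR-181a-5p is cut from both MIR181A1 and MIR181A2, and miR-181b-5p from both MIR181B1 and MIR181B2, so counts of these 2 guides cannot be assigned to chromosome 1 or 9. miR-181a-3p and miR-181b-3p come from the chromosome 1 pair, miR-181a-2-3p from MIR181A2, and the miR-181c arms and miR-181d-5p from the chromosome 19 pair. The table also held the other 3p arms, miR-181b-2-3p and miR-181d-3p, at 0 to 10 counts in a library. They are not members, and their levels in hypoxia and normoxia are not reported further.

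Library totals ran from 1742290 to 4327382 counts in PC3 and from 960421 to 3181344 in 22Rv1. Replicates of 1 group showed a common coefficient of biological variation of 15.3% in PC3 and 17.7% in 22Rv1. Libraries stood apart on the first principal component in both lines. In PC3 these were replicate 1 of the 5% group and of its control, in which 5 smooth muscle or stromal marker miRNAs summed to 1390 and 1469 CPM (counts scaled to library size, with TMM factors), against at most 43.3 CPM in the other 22. This sum was carried by miR-143-3p (at most 1446 CPM), while miR-199a-3p, the next, reached at most 15.6 CPM in PC3. In 22Rv1 they were replicate 1 of the 5% group and of its control, the 2 shallowest libraries of the series (1035470 and 960421 counts), and replicate 1 of the 0.5% group. In these 3, epithelial markers summed to 43105 to 59686 CPM and red cell or serum markers to 2107 to 2649 CPM, against at most 42960 and 1931 CPM in the other 20. Their stromal markers summed to 33.7 to 511 CPM, against at most 180 CPM in the others. In 22Rv1 the red cell or serum sum was carried by miR-486-5p (at most 2641 CPM), with miR-122-5p, the next, at most 10.2 CPM. The stromal sum was carried by miR-143-3p (at most 479 CPM), with miR-199a-3p, the next, at most 26.9 CPM. The epithelial sum was carried by miR-200c-3p and miR-141-3p (at most 29038 and 30495 CPM), with miR-200a-3p, the next, at most 95.6 CPM. On the other side of that component in 22Rv1, replicate 2 of the 0.2% hypoxia group, which has no same-numbered control, scored highest (7.04). It was not counted among the libraries apart, although the duplicates of its group differed most (chi-square per degree of freedom 147.7, against 137.3 in the 5% controls). In PC3 the first component (19.4% of the variance) also split the whole line by replicate number. Replicate 1 libraries scored 0.0728 to 7.13 and replicate 2 libraries -4.19 to -0.974. The main fit had no term for replicate number. miR-221-3p, miR-222-3p and miR-31-5p summed to at least 47556 CPM in PC3 and to at most 129 CPM in 22Rv1, and miR-375 with miR-148a-3p to at most 1363 CPM in PC3 and at least 34308 CPM in 22Rv1. Of 4 haematopoietic markers, from cells that also express miR-181, 3 were analysed. They summed to 1.99 to 8.68 CPM in PC3, where miR-150-5p was in every library (at most 6.79 CPM). In 22Rv1 they summed to 5.87 to 17.6 CPM, with miR-155-5p in every library (mean 9.61, at most 17.6 CPM). miR-142-3p reached at most 2.98 CPM in PC3 and 1.94 CPM in 22Rv1, and was at 0 in 4 and 7 libraries. As a check of the treatment, miR-210-3p, the best-known miRNA induced by hypoxia-inducible factor, was higher in hypoxia in 12 of 12 PC3 pairs and 11 of 11 22Rv1 pairs.

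In normoxia all 8 members were more abundant in PC3 than in 22Rv1. Reads of the 8 members made up 1.65% of a PC3 normoxia library on average (1.46 to 1.81%) and 0.557% of a 22Rv1 library (0.439 to 0.658%). In PC3 the leading guide miR-181a-5p ran from 10781 CPM over a median of 13391 to 15170 CPM (n = 12), and in 22Rv1 from 1975 over 2989 to 3989 CPM (n = 11). The 2 sets of libraries did not overlap. The level in PC3 was 4.32 times that in 22Rv1, a log2 difference of 2.11 ± 0.13 (standard error) with an adjusted p of 5.38e-16 by edgeR's quasi-likelihood test. All 8 members passed this test as higher in PC3, on a background of 39.6% of the 613 entries tested. For miR-181b-3p the direction was set in advance, because it met the filter of 5 CPM in 2 libraries only through PC3. The log2 differences of the other guides were 2.36 for miR-181b-5p, 1.51 for miR-181d-5p and 0.94 for miR-181c-5p. The median over all entries was -0.15, and -0.60 when libraries were scaled by their totals alone.

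The largest line differences were in the 3p strands of the chromosome 1 pair. miR-181a-3p ran from 321 over 379 to 477 CPM in PC3 normoxia and from 11.3 over 16.4 to 25.2 CPM in 22Rv1, a 23.0-fold difference (log2 4.52 ± 0.15, adjusted p = 2.20e-26, edgeR). miR-181b-3p was at 7.81 to 17.0 CPM (16 to 59 counts) in PC3. In 22Rv1 it was at 0 to 1.12 CPM (0 to 4 counts), with no count in 4 of 11 libraries, so its fold rests on few reads. The ratio of mean levels was 28.97, and the difference fitted by edgeR was log2 5.63 ± 0.33 (49.6-fold, adjusted p = 9.11e-18), a value that depends on the prior count. Since miR-181b-3p passed the filter through PC3 alone, this p-value adds no support for the direction. The 3p strands of the other pairs differed less, with log2 1.88 for miR-181a-2-3p and 1.99 for miR-181c-3p.

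Within a library the order of the members changed with the line. The mature sequences are 21 to 23 bases long, so CPM are compared here without correction for length. In PC3 normoxia the mean levels fell from miR-181a-5p (13131 ± 1241 CPM, SD, n = 12) to miR-181b-5p (2553 ± 230), miR-181c-5p (1459 ± 111), miR-181d-5p (679 ± 36.2), miR-181c-3p (427 ± 20.3), miR-181a-3p (379 ± 47.4), miR-181a-2-3p (229 ± 20.9) and miR-181b-3p (12.2 ± 3.07). The neighbours miR-181c-3p and miR-181a-3p overlapped in range. In 22Rv1 normoxia the order was miR-181a-5p (3016 ± 664 CPM, SD, n = 11), miR-181c-5p (760 ± 160), miR-181b-5p (499.9 ± 74.0), miR-181d-5p (241 ± 53.6), miR-181c-3p (109 ± 16.7), miR-181a-2-3p (62.3 ± 6.99), miR-181a-3p (16.8 ± 4.69) and miR-181b-3p (0.421 ± 0.400). The ranges of miR-181c-5p and miR-181b-5p overlapped there, although miR-181c-5p was the higher of both in each of the 11 libraries. In PC3 it was the lower of both in all 12. The 3p strands of the MIR181A1 and MIR181A2 hairpins swapped places in the same way. For 100 reads of miR-181a-2-3p, PC3 normoxia libraries held 138 to 195 reads of miR-181a-3p and 22Rv1 normoxia libraries 18.6 to 38.1.

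**Figure D1:**
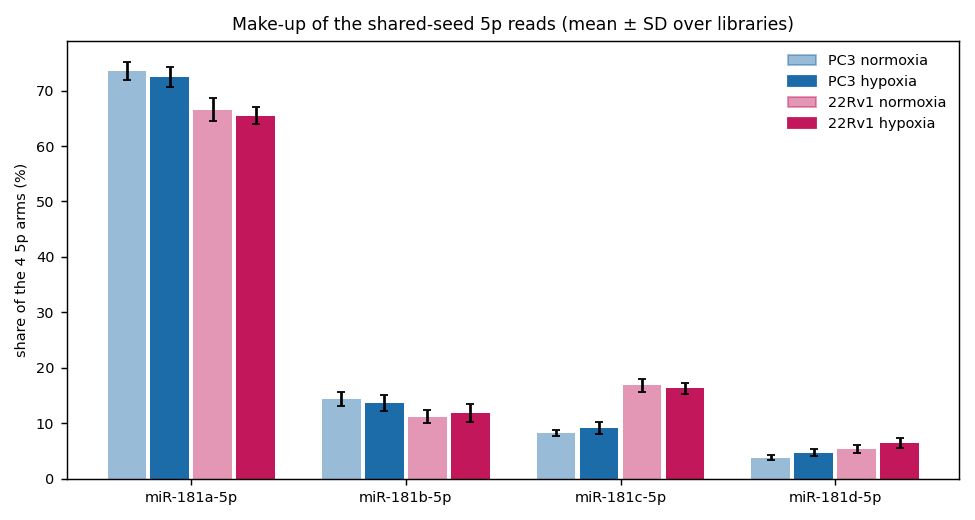
Share of each 5p arm in the summed reads of the 4 5p arms (%, vertical axis), as mean ± SD over 12 PC3 normoxia, 12 PC3 hypoxia, 11 22Rv1 normoxia and 12 22Rv1 hypoxia libraries (PC3 blue, 22Rv1 red, normoxia pale and hypoxia full colour). miR-181a-5p takes 73.6% in PC3 and 66.6% in 22Rv1 normoxia, and miR-181c-5p 8.20 and 16.8%.

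The 4 guides share 1 seed, so their make-up was set out as shares of their summed reads. miR-181a-5p made up 73.6% ± 1.63 (SD, n = 12) of them in PC3 normoxia and 66.6% ± 2.02 (n = 11) in 22Rv1 normoxia. miR-181c-5p made up 8.20% ± 0.557 and 16.8% ± 1.18, miR-181b-5p 14.4% ± 1.31 and 11.2% ± 1.098, and miR-181d-5p 3.83% ± 0.390 and 5.37% ± 0.722. The plot of shares shows that the 2 lines did not overlap for miR-181a-5p and miR-181c-5p (70.1 to 76.0% against 63.3 to 69.2%, and 7.34 to 9.02% against 15.4 to 19.6%). The summed guides stood at 17822 ± 1390 CPM in PC3 normoxia and 18751 ± 1583 CPM in PC3 hypoxia, and at 4516 ± 918 and 5004 ± 1558 CPM in 22Rv1. Hypoxia was higher in 10 of 12 and 10 of 11 pairs, and the means differed by less than 1 SD. No test was run on the sums. In bulk RNA, fewer cells that express a miRNA and less of it in each cell cannot be told apart.

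In PC3 hypoxia members were called in both directions. Averaged over the 6 O2 levels, the 3 members of the chromosome 19 pair rose and both 3p strands of the chromosome 1 pair fell, while miR-181a-5p, miR-181b-5p and miR-181a-2-3p did not pass the test. Of the 8 members 3 were called higher, on a background of 5.83% of 463 entries, and 2 lower, on a background of 5.18%. The median effect was log2 0.04 over the members and -0.00 over all entries tested.

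miR-181d-5p, the guide of the MIR181D hairpin, ran from 615 over a median of 685 to 730 CPM in the 12 PC3 normoxia libraries. In the 12 hypoxia libraries it ran from 785 over 857 to 1012 CPM. Every hypoxia library was above every normoxia library. The mean effect was a rise of 1.29-fold, or log2 0.37 ± 0.042 (here and below, ± beside a log2 effect is its standard error), in 12 of 12 pairs, with an adjusted p of 1.86e-06 by edgeR's quasi-likelihood test.

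miR-181c-3p, the passenger of MIR181C, ran from 371 over 432 to 449 CPM in normoxia and from 438 over 559 to 647 CPM in hypoxia. Only 1 of 12 hypoxia libraries, replicate 2 at 5% O2, fell within the normoxia range. It rose by log2 0.37 ± 0.047 (1.30-fold, adjusted p = 5.79e-06, edgeR), in 12 of 12 pairs. Its guide, miR-181c-5p, ran from 1241 over 1464 to 1627 CPM in normoxia and from 1424 over 1753 to 1924 CPM in hypoxia, so the groups overlapped, with 8 of 12 hypoxia libraries above all controls. It rose by log2 0.23 ± 0.047 (1.17-fold, adjusted p = 0.00132, edgeR), in 11 of 12 pairs. This call was lost when both lines shared 1 estimate of the spread (adjusted p = 0.396).

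miR-181a-3p, the passenger of MIR181A1, ran from 321 over 379 to 477 CPM in normoxia and from 199 over 260 to 392 CPM in hypoxia. The 2 hypoxia libraries within the normoxia range were replicate 1 at 5% O2 (392 CPM) and at 0.2% O2 (380 CPM), and the other 10 were below all controls. It fell by 0.46 on the log2 scale (standard error 0.10, adjusted p = 0.00467, edgeR), in 12 of 12 pairs. miR-181b-3p, the passenger of the neighbouring MIR181B1, ran from 7.81 over 10.6 to 17.0 CPM in normoxia and from 4.91 over 6.01 to 13.8 CPM in hypoxia, at 9 to 26 counts a library. It fell by 0.75 on the log2 scale (standard error 0.17, adjusted p = 0.00298, edgeR), in 11 of 12 pairs. The groups overlapped, with 8 of 12 hypoxia libraries below all controls.

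miR-181a-2-3p, the passenger of MIR181A2 on chromosome 9, ran from 203 over 227 to 271 CPM in normoxia and from 168 over 194 to 253 CPM in hypoxia. Hypoxia was lower in 11 of 12 pairs, with a mean effect of log2 -0.17 (standard error 0.073) that missed the threshold (adjusted p = 0.147, edgeR). A fit that blocked on the pairs of same-numbered hypoxia and normoxia libraries of each level (the replicate block) gave the same log2 value and passed (adjusted p = 0.00524). The effect also passed with scaling by library totals alone (0.0325) and without replicate 1 of the 0.2% hypoxia group (0.0467). The abundant guides did not pass the test. miR-181a-5p was at 13131 ± 1241 CPM in normoxia and 13605 ± 1429 CPM in hypoxia (SD, n = 12 each; log2 0.06, standard error 0.054, adjusted p = 0.566, edgeR). miR-181b-5p was at 2553 ± 230 and 2567 ± 304 CPM (log2 0.01 ± 0.052, adjusted p = 0.933, edgeR).

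**Figure D2:**
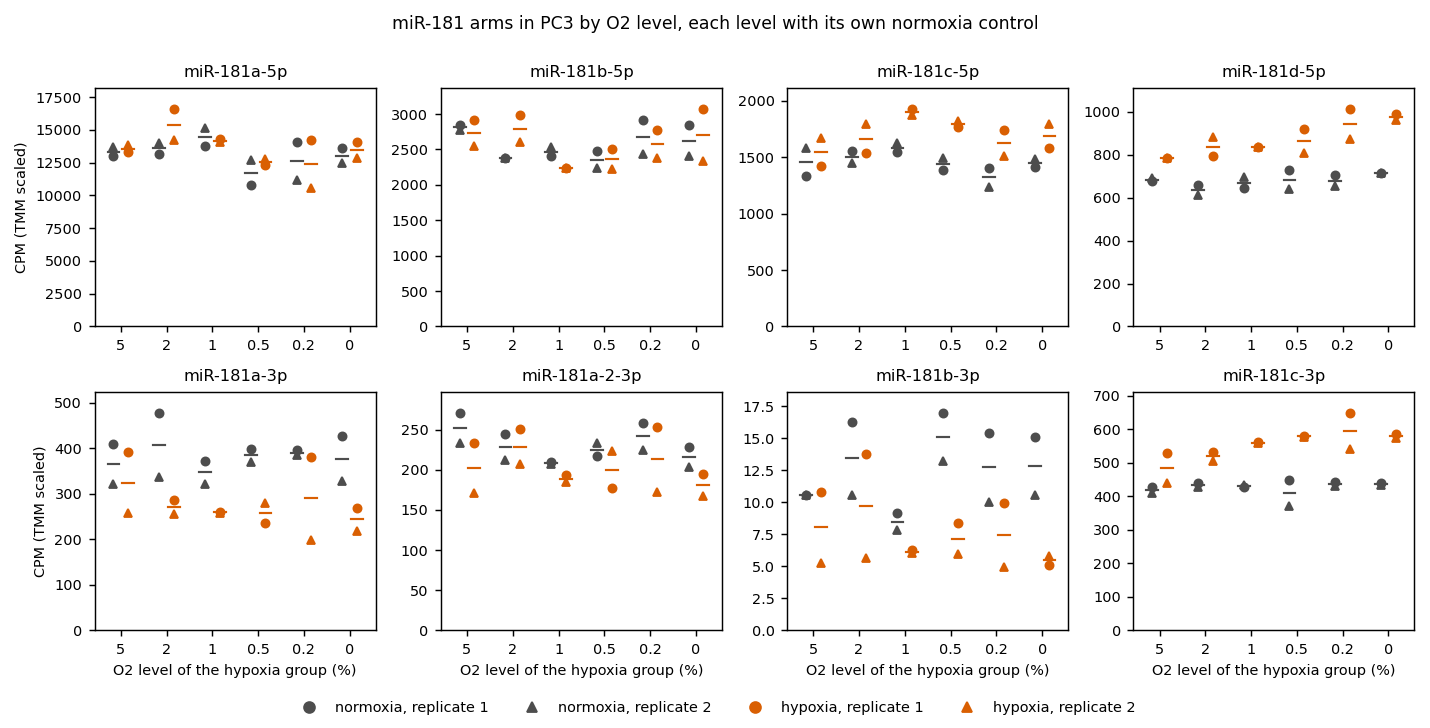
CPM (vertical axis, from 0) of the 8 members in every PC3 library by O2 level (%, horizontal axis), normoxia in grey and hypoxia in orange, circles for replicate 1, triangles for replicate 2 and short lines at group means. The 12 hypoxia libraries of miR-181d-5p lie between 785 and 1012 CPM, all above the normoxia libraries (615 to 730), and miR-181a-3p is lower in hypoxia in 12 of 12 pairs.

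By single levels, 5 of 48 tests in PC3 passed, all of them rises of miR-181c-3p or miR-181d-5p. At 0.2% O2 miR-181d-5p was at 706 and 654 CPM in normoxia and at 1012 and 876 CPM in hypoxia (log2 0.52, adjusted p = 0.0101, edgeR), and at 0% O2 at 714 and 717 against 992 and 961 CPM (log2 0.47, adjusted p = 0.0241). miR-181c-3p went from 449 and 371 to 579 and 578 CPM at 0.5% O2 (log2 0.49, adjusted p = 0.0492), from 441 and 432 to 647 and 539 CPM at 0.2% (log2 0.49, adjusted p = 0.0313), and from 441 and 432 to 585 and 572 CPM at 0% (log2 0.43, adjusted p = 0.0398). The background of entries called higher was 0.864% at 0.5% O2, 1.51% at 0.2% and 1.08% at 0%, with 0%, 0% and 1.73% called lower. No member was called at 5% (background 0%), 2% (0.432% higher, 0.216% lower) or 1% (0.216% higher, 0.432% lower), and 18 of the 48 tests had an unadjusted p under 0.05. Omitting 1 library ended the 0.5% call of miR-181c-3p in 15 of 24 omissions, its 0.2% call in 6 and its 0% call in 11, with libraries of other levels among them. The miR-181d-5p call at 0.2% was lost in 3 omissions and that at 0% in 4, each of a library of that level or its control. None of these 5 calls held with the authors' scaling factors, without the filter on low counts or with both lines in 1 fit. With the replicate block 16 of 48 tests of members passed, 11 higher and 5 lower. Over all entries the block called 136 of 2778 such tests (77 higher, 59 lower), against 30 without it. The block called miR-181d-5p higher at 2, 1, 0.5, 0.2 and 0% O2, and miR-181a-3p lower at 2% (log2 -0.60, adjusted p = 0.0213), 0.5% (-0.59, 0.0252) and 0% (-0.60, 0.0137).

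At 5% O2, the mildest level, the effect on miR-181d-5p was log2 0.20 (786 and 785 against 678 and 692 CPM) and that on miR-181c-3p log2 0.21, both short of the threshold. The linear trend over the 6 ordered levels was log2 0.06 per step for miR-181c-3p and 0.05 for miR-181d-5p and did not pass the test (edgeR, adjusted p = 0.995 for both, unadjusted 0.0528 and 0.0529). Of the 8 members 0 passed the trend test in PC3 by edgeR, by DESeq2 or at an unadjusted p under 0.05. Over all entries edgeR called 0.216% lower and 0% higher, DESeq2 called 1 of 463, and 17 had an unadjusted p under 0.05. Of the 8 members, 0 differed among the 6 sets of normoxia controls by edgeR or DESeq2, or at an unadjusted p under 0.05. Over all 463 entries edgeR called 0%, DESeq2 called 2, and 13 had an unadjusted p under 0.05.

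In 22Rv1 the members called all rose, and among them was miR-181a-3p, which fell in PC3. Of 7 members tested 3 were higher, on a background of 7.61% of 552 entries, and 0 lower, on a background of 5.98%. The median effect was log2 0.27 over the members tested and 0.01 over all entries. The summed level of the 3 haematopoietic markers ran from 5.87 over 8.29 to 11.4 CPM in 22Rv1 normoxia. In hypoxia it ran from 8.42 over 12.8 to 17.6 CPM. This sum was carried by miR-155-5p (mean 9.61 CPM over all 22Rv1 libraries). miR-142-3p and miR-150-5p had means of 0.520 and 0.401 CPM there and were at 0 in 7 libraries each. The part of this sum in the members' rise was not tested. The 3 members called higher were the passenger strands miR-181a-3p, miR-181a-2-3p and miR-181c-3p. The guide miR-181d-5p was higher in hypoxia in 11 of 11 pairs, by log2 0.39 on average, but was not called. miR-181b-3p, with 0 to 7 counts a library, was not tested there because it was below the filter of 5 CPM in 2 libraries.

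miR-181a-3p ran from 11.3 over 16.4 to 25.2 CPM in the 11 normoxia libraries of 22Rv1 (11 to 88 counts) and from 16.3 over 23.7 to 36.8 CPM in the 12 hypoxia libraries (15 to 168 counts). The groups overlapped, with 4 of 12 hypoxia libraries above all controls. It rose by log2 0.59 ± 0.14 (1.504-fold, adjusted p = 0.00651, edgeR), in 10 of 11 pairs. The exception was replicate 1 at 0.5% O2, at 21.3 CPM against 24.7 CPM in its control. The call held in every omission of 1 library and was lost with scaling by library totals alone (log2 0.53, adjusted p = 0.0680).

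miR-181a-2-3p ran from 50.8 over 63.3 to 74.7 CPM in normoxia and from 50.4 over 83.7 to 102 CPM in hypoxia, with 8 of 12 hypoxia libraries above all controls and 1 below. It rose by log2 0.33 ± 0.10 (1.26-fold, adjusted p = 0.0341, edgeR), in 10 of 11 pairs. miR-181c-3p ran from 78.5 over 108 to 136 CPM in normoxia and from 82.6 over 143 to 187 CPM in hypoxia, and rose by log2 0.27 ± 0.088 (1.21-fold, adjusted p = 0.0428, edgeR). It was higher in hypoxia in 7 of 11 pairs. At 0% O2 both hypoxia libraries were lower than both controls (82.6 and 85.2 against 111 and 102 CPM). Both calls were close to the threshold. That of miR-181a-2-3p was lost in 15 of 23 omissions of 1 library and held without replicate 1 of the 5, 2 or 0.2% controls, replicate 2 of the 0% control, or replicate 2 of the 5, 1, 0.5 or 0.2% hypoxia groups (adjusted p from 0.00375 to 0.0816). That of miR-181c-3p was lost in 17 of 23 and held without replicate 1 of the 0.5% hypoxia group or its control, replicate 2 of the 5% hypoxia group or its control, or replicate 2 of the 1 or 0.2% hypoxia groups (0.0213 to 0.106). Without the 3 libraries apart the adjusted p were 0.0672 and 0.0933. Scaling by library totals alone ended both calls (0.109 and 0.369), and that of miR-181c-3p was also lost with DESeq2's size factors (0.0501), with the authors' factors (0.0676) and without the filter (0.100).

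miR-181d-5p ran from 180 over 238 to 384 CPM in 22Rv1 normoxia and from 172 over 319 to 475 CPM in hypoxia, higher in 11 of 11 pairs. The groups overlapped widely, since replicates of 1 group differed (384 and 187 CPM in the 5% controls). The effect was log2 0.39 (standard error 0.15) and missed the threshold (adjusted p = 0.110, edgeR). It passed with the replicate block (log2 0.46, adjusted p = 3.05e-06), with both lines in 1 fit (0.0135) and without replicate 1 of the 5% control, replicate 2 of the 5% hypoxia group or replicate 2 of the 0.2% hypoxia group (lowest adjusted p 0.0101). miR-181b-5p was at 499.9 ± 74.0 CPM in normoxia and 572 ± 125 CPM in hypoxia (log2 0.18 ± 0.094, adjusted p = 0.220, edgeR; 0.0321 with the replicate block). Its call also appeared without replicate 2 of the 5% hypoxia group (adjusted p = 0.0468). miR-181a-5p (3016 ± 664 and 3290 ± 1079 CPM, log2 0.08, adjusted p = 0.825) and miR-181c-5p (760 ± 160 and 822 ± 282 CPM, log2 0.07, adjusted p = 0.866) did not pass the test either.

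**Figure D3:**
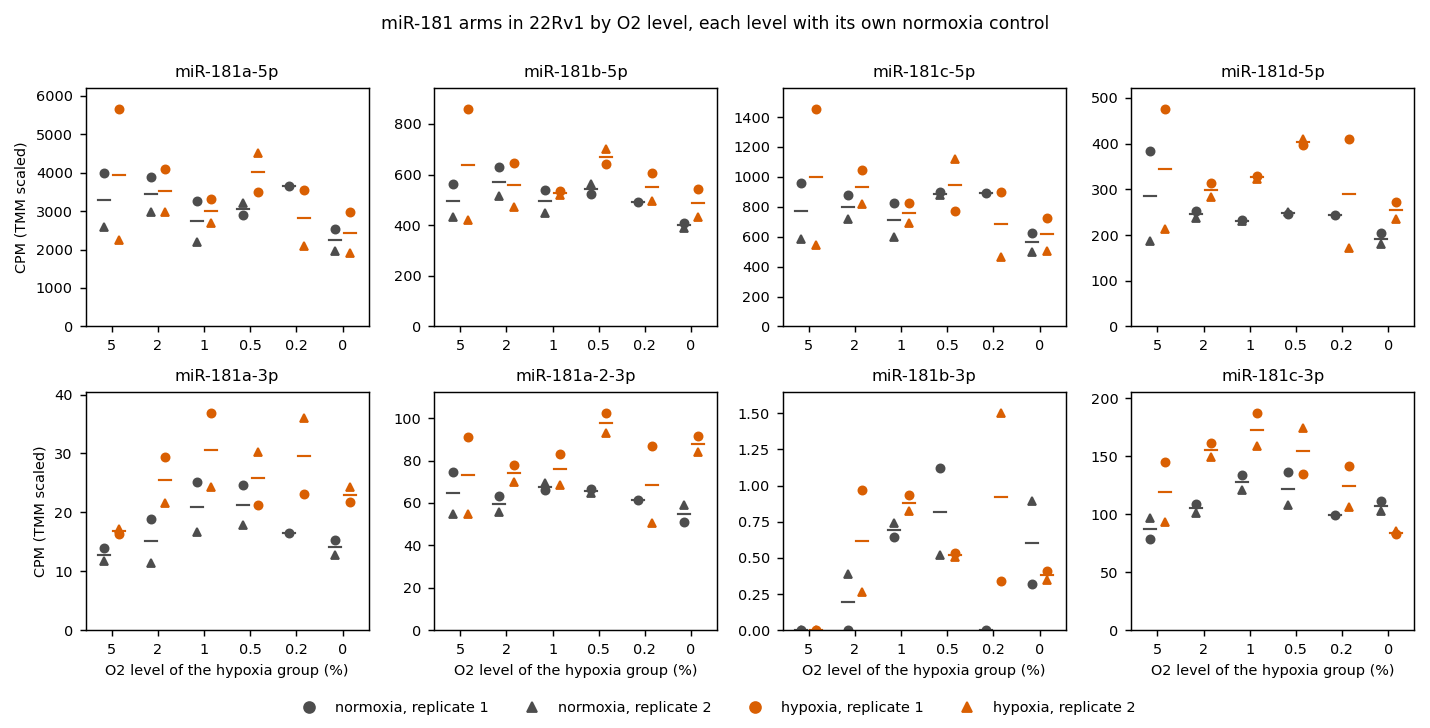
CPM (vertical axis, from 0) of the 8 members in every 22Rv1 library by O2 level (%, horizontal axis), normoxia in grey and hypoxia in orange, circles for replicate 1, triangles for replicate 2 and short lines at group means. miR-181a-3p is higher in hypoxia in 10 of 11 pairs, and replicate 1 at 5% O2 and its control are the highest of their groups for several guides, such as miR-181d-5p (475 and 384 CPM).

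At single levels 0 of 42 tests in 22Rv1 passed by edgeR or DESeq2, and 7 had an unadjusted p under 0.05. The largest effect of miR-181a-2-3p was at 0% O2, at 50.8 and 59.0 CPM in normoxia and 91.6 and 84.1 CPM in hypoxia (log2 0.68, adjusted p = 0.127, edgeR, and 0.00701 with the replicate block). Backgrounds of entries called higher and lower by edgeR were 0% and 0% at 5% O2, 0.362% and 0% at 2%, 0.725% and 0% at 1%, 1.81% and 1.27% at 0.5%, 0.725% and 0.181% at 0.2%, and 3.44% and 1.27% at 0%. DESeq2 called 69 of 3312 single-level tests over all entries. The block called 5 of 42 tests of members as higher, miR-181d-5p at 1, 0.5 and 0.2% O2 and miR-181a-2-3p at 0.5 and 0%. Over all entries the block called 199 of 3288 such tests (121 higher, 78 lower), against 54 of 3312 without it. At 0.2% the block rests on the single control. The trend test passed for 0 of 7 members by edgeR or DESeq2, with miR-181c-3p at an unadjusted p of 0.0420 (log2 -0.11 per step). Over all 552 entries edgeR called 0.181% higher and 0% lower, DESeq2 called 3 higher and 1 lower, and 38 had an unadjusted p under 0.05. Of the 7 members 0 differed among the control sets by edgeR or DESeq2, or at an unadjusted p under 0.05. Over all 552 entries edgeR called 0%, DESeq2 called 0, and 3 had an unadjusted p under 0.05.

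**Figure D4:**
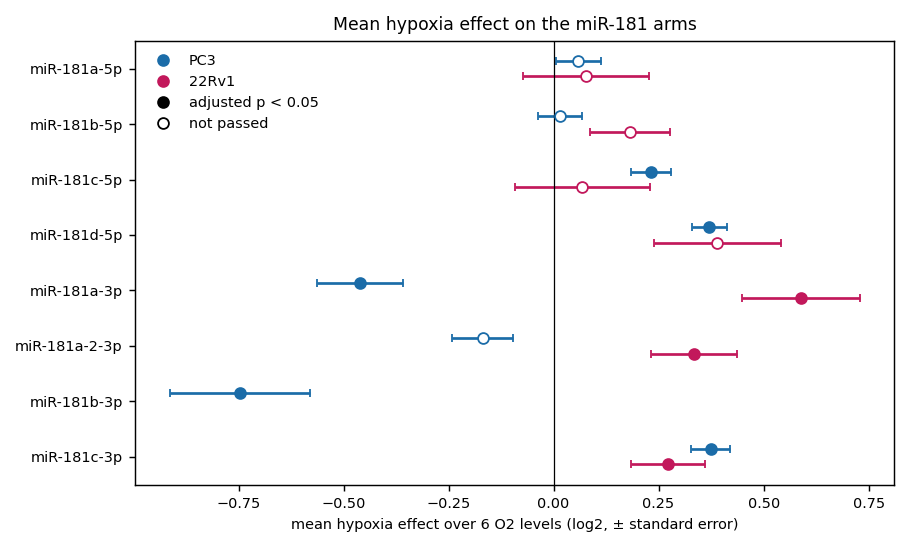
Mean hypoxia effect over the 6 O2 levels (log2, horizontal axis, ± standard error) of each member in PC3 (blue) and 22Rv1 (red). Filled points passed the edgeR test at an adjusted p below 0.05 over all entries. miR-181a-3p stands at -0.46 in PC3 and 0.59 in 22Rv1, and miR-181b-3p could be tested in PC3 only.

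The difference of the mean effect between the lines was tested itself. It passed for 2 members, both more negative in PC3, on a background of 2.45% of 613 entries, and for 0 in the other direction, where 0.489% were called. miR-181a-3p differed by log2 -1.07 (PC3 minus 22Rv1, standard error 0.17, adjusted p = 9.36e-05, edgeR), a result that kept its call in all 8 alternatives and all 47 omissions of 1 library. miR-181a-2-3p, from the other miR-181a hairpin, differed by log2 -0.52 (standard error 0.13, adjusted p = 0.0198). Its call was lost with a filter at 20 CPM (0.0649), without the 5 libraries apart (0.0810) and in 19 of 47 omissions of 1 library (adjusted p up to 0.0884). In PC3 these were replicate 1 of the 5 and 2% controls and of the 0.5% hypoxia group, and replicate 2 of the 5, 1, 0.2 and 0% hypoxia groups and of the 1 and 0.5% controls. In 22Rv1 they were replicate 1 of the 5, 2, 1 and 0.2% hypoxia groups and of the 1 and 0% controls, and replicate 2 of the 2% hypoxia group and of the 5, 2 and 1% controls. With the replicate block miR-181b-5p passed too (log2 -0.25, adjusted p = 0.0254). For the chromosome 19 members the differences were log2 0.08 for miR-181c-3p (standard error 0.10), 0.14 for miR-181c-5p (0.18) and -0.04 for miR-181d-5p (0.16), none of which passed. No difference could be estimated for miR-181b-3p, which was at 0 in all 4 libraries of 22Rv1 at 5% O2 and its control.

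Ratios between members within a library do not depend on how libraries are scaled. In each library 10 ratios were formed, and hypoxia was compared with its own control by an exact permutation test of the treatment labels within each level (two-sided, Benjamini-Hochberg over 20 tests in both lines, smallest possible p 4.29e-05). For 100 reads of miR-181a-5p, PC3 libraries held 2.92 ± 0.512 reads of miR-181a-3p in normoxia and 2.02 ± 0.392 in hypoxia (SD, n = 12 each). The ratio fell at all 6 levels, by 0.53 on the log2 scale on average (adjusted p = 0.0015, exact permutation). Reads of miR-181a-2-3p per 100 of miR-181a-5p went from 1.76 ± 0.224 to 1.49 ± 0.194, lower at all 6 levels (log2 -0.23, adjusted p = 0.0015, exact permutation). The 2 passengers were also set against each other. For 100 reads of miR-181a-2-3p there were 166 ± 17.0 reads of miR-181a-3p in normoxia and 135 ± 15.4 in hypoxia (log2 -0.29, adjusted p = 0.00463, exact permutation). miR-181b-3p per 100 reads of miR-181b-5p went from 0.480 ± 0.125 to 0.282 ± 0.0849 (log2 -0.76, adjusted p = 0.0015, exact permutation).

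On chromosome 19 the passenger was not called lower against its guide. For 100 reads of miR-181c-5p, PC3 held 29.5 ± 2.97 reads of miR-181c-3p in normoxia and 32.6 ± 3.77 in hypoxia (n = 12 each), a log2 change of 0.14 that was positive at all 6 levels and missed the threshold (adjusted p = 0.0523, exact permutation, and 0.0122 with the replicate block). It passed without any 1 of 7 libraries, namely replicate 1 of the 5, 1 or 0.5% controls, replicate 2 of the 0.2% control or replicate 2 of the 5, 2 or 0% hypoxia groups. The 4 guides shifted toward chromosome 19 in PC3. For 100 reads of miR-181a-5p and miR-181b-5p together there were 13.7 ± 1.04 reads of miR-181c-5p and miR-181d-5p in normoxia and 16.1 ± 1.95 in hypoxia (log2 0.23, adjusted p = 0.00472, exact permutation). miR-181d-5p gained on miR-181b-5p, from 26.7 ± 1.99 to 34.4 ± 4.43 per 100 reads (log2 0.36, adjusted p = 0.0015, exact permutation), and on its neighbour miR-181c-5p, from 46.8 ± 4.47 to 51.7 ± 6.16 (log2 0.14, adjusted p = 0.0207). miR-181c-5p rose against miR-181a-5p from 11.2 ± 0.859 to 12.6 ± 1.61 per 100 (log2 0.17, adjusted p = 0.0259), while the ratio of miR-181b-5p to miR-181a-5p, whose hairpins pair up on both chromosomes, did not pass (log2 -0.05, adjusted p = 0.391). The call of miR-181c-5p to miR-181a-5p was lost without replicate 1 of the 0% control, replicate 2 of the 2% group or its control, or replicate 2 of the 0% group (adjusted p up to 0.0929). That of miR-181d-5p to miR-181c-5p was lost without replicate 1 of the 0.5% hypoxia group or replicate 2 of its control (up to 0.0652).

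In 22Rv1 1 of 10 ratios passed. miR-181d-5p rose against miR-181c-5p from 32.0 ± 4.55 (SD, n = 11) to 39.8 ± 6.44 (n = 12) per 100 reads, at all 6 levels (log2 0.33, adjusted p = 0.0108, exact permutation). miR-181a-3p per 100 reads of miR-181a-5p went from 0.574 ± 0.168 to 0.848 ± 0.371 (log2 0.52, adjusted p = 0.0569, and 0.0326 with the replicate block, exact permutation), and miR-181a-2-3p from 2.15 ± 0.493 to 2.56 ± 0.710 (log2 0.27, adjusted p = 0.0569, and 0.0361 with the block). Without any 1 of 6 libraries the former passed, and without any 1 of 4 the latter (lowest adjusted p 0.0114 and 0.0156). With the block miR-181d-5p to miR-181b-5p passed as well (log2 0.26, adjusted p = 0.0215). miR-181c-3p per 100 reads of miR-181c-5p went from 14.95 ± 3.84 to 17.2 ± 4.17 (log2 0.24, adjusted p = 0.222).

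The lines differed in 2 of the 10 ratios when the 6 level effects of each line were compared (exact permutation of the line labels over 12 level effects, Benjamini-Hochberg over 10, smallest possible p 0.00216). These were miR-181a-3p to miR-181a-5p (PC3 minus 22Rv1, log2 -1.05, adjusted p = 0.0108) and miR-181a-2-3p to miR-181a-5p (log2 -0.50, adjusted p = 0.0108). Here the level effects of a line stood as separate units, so the p-values measure spread among O2 levels within each line. The matching of levels between the lines was not used. Both calls were lost without replicate 2 of the 22Rv1 5% hypoxia group (adjusted p = 0.0577) and kept in the other 46 omissions. With the replicate block 4 passed, adding miR-181a-3p to miR-181a-2-3p (log2 -0.44, adjusted p = 0.0295) and miR-181b-3p to miR-181b-5p (log2 -0.88, adjusted p = 0.0311), the latter resting on 0 to 7 counts in 22Rv1.

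**Figure D5:**
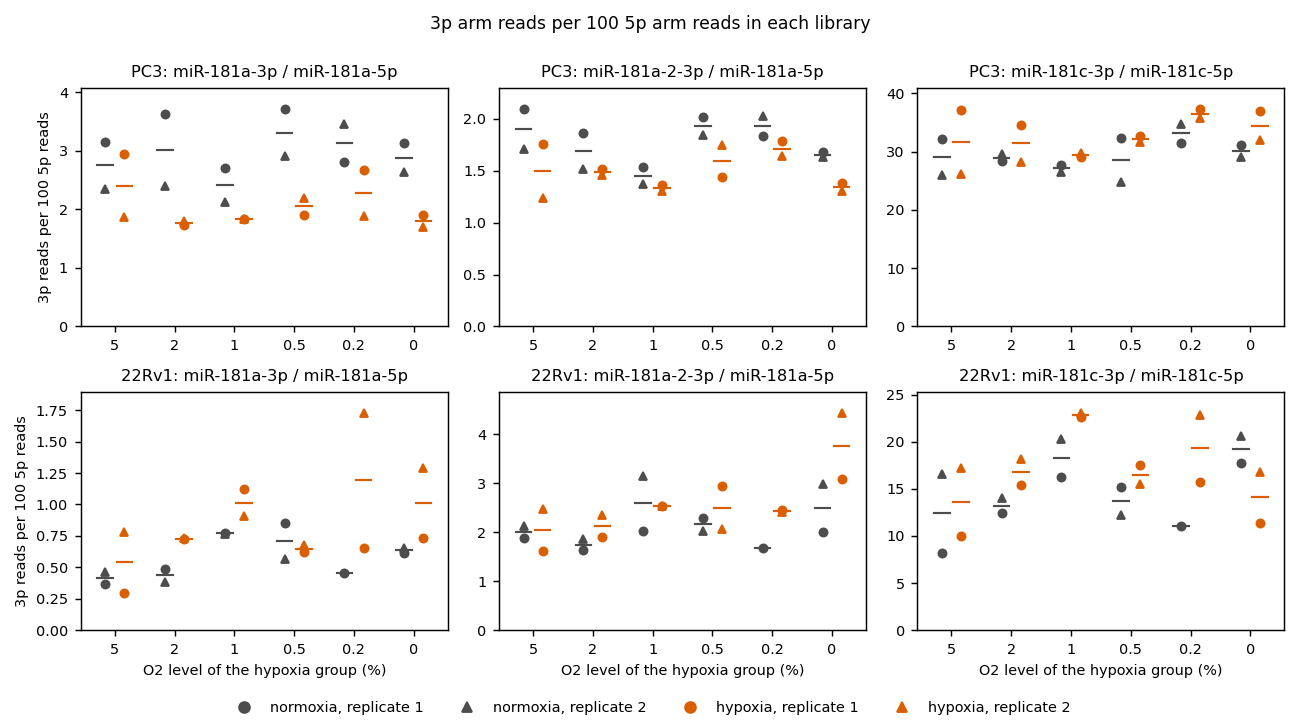
Reads of a 3p arm per 100 reads of the 5p arm (vertical axis, from 0) in every library by O2 level (%, horizontal axis), PC3 above and 22Rv1 below, normoxia in grey and hypoxia in orange (circles replicate 1, triangles replicate 2, short lines group means). miR-181a-3p per 100 miR-181a-5p is lower in PC3 hypoxia at all 6 levels (mean 2.92 to 2.02) and higher in 22Rv1 hypoxia at 5 of 6 (0.574 to 0.848).

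Across the 24 PC3 libraries the highest correlations between members were not those of the arms of 1 hairpin. The log2 CPM of miR-181c-3p and miR-181d-5p correlated with Pearson r = 0.91, those of miR-181a-3p and miR-181b-3p with r = 0.83 and those of miR-181a-3p and miR-181a-2-3p with r = 0.80. miR-181a-3p and its own guide miR-181a-5p gave r = 0.01, and miR-181a-3p and miR-181d-5p r = -0.65. In the 23 22Rv1 libraries the highest values were r = 0.96 between miR-181a-5p and miR-181c-5p and 0.89 between miR-181a-5p and miR-181b-5p, pairs that gave 0.36 and 0.37 in PC3. The PC3 pairs were weaker or of other sign in 22Rv1. There miR-181c-3p and miR-181d-5p gave r = 0.50, miR-181a-3p and miR-181a-2-3p 0.38, and miR-181a-3p and miR-181d-5p 0.24. The points share their libraries, treatments and scaling, and these values are descriptions. Among 293 other entries at 20 CPM or more in PC3, those most like miR-181d-5p were miR-210-3p (r = 0.89), miR-30d-5p (0.85) and miR-30b-3p (0.85). Those most like miR-181c-3p were miR-30d-3p (0.92), miR-210-3p (0.89) and miR-30d-5p (0.86). For miR-181a-3p they were let-7a-3p (0.84), miR-222-5p (0.78) and miR-454-3p (0.77). In 22Rv1 (305 entries) miR-181a-3p was most like miR-590-3p (0.80), miR-210-3p (0.78) and miR-30d-5p (0.75), miR-181d-5p most like miR-126-5p (0.93), miR-200c-3p (0.90) and miR-26a-5p (0.90), and miR-181c-3p most like miR-769-5p (0.67), miR-101-3p (0.66) and miR-126-5p (0.64). The summed guides were most like miR-1269a (0.68), miR-21-5p (0.65) and let-7i-5p (0.64) in PC3, and miR-203a-3p (0.90), miR-200a-3p (0.90) and miR-26a-5p (0.89) in 22Rv1.

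A list of 16 miRNAs known from the literature as hypoxia-responsive, without the miR-181 members, was set beside them. In PC3 3 of 16 rose (miR-210-3p by log2 0.70, miR-30b-5p by 0.30 and miR-192-5p by 0.22), 0 fell and 13 did not pass the test. The background there was 5.83% of 463 entries called higher and 5.18% lower. In 22Rv1 3 of 16 rose (miR-210-3p by log2 1.01, miR-23a-3p by 0.34 and miR-27a-3p by 0.27), 0 fell and 13 did not pass, on a background of 7.61% of 552 entries called higher and 5.98% lower. The list's median effect was log2 0.05 in PC3 and 0.17 in 22Rv1, against -0.00 and 0.01 over all entries. Of the 16, 0 passed the test of the difference between the lines (edgeR), and 3 had an unadjusted p under 0.05. Over all 613 entries 0.489% were called higher and 2.45% lower in that test, and 93 had an unadjusted p under 0.05.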

How the data were processed

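Small RNA libraries (TruSeq) of total RNA from PC3 and 22Rv1 cells were sequenced. The authors deposited raw read counts per mature miRNA and a table of CPM scaled by the trimmed mean of M values. Each deposited CPM column was found to be the count column times 1 constant, and it served only as an alternative scaling (the authors' factors). The genome build hg19 and FastQC are named in the submitters' processing notes. For the aligner, the counter and the treatment of reads matching several miRNAs: not given in the sources used here.

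Groups were read from the sample titles. Counts were tested with edgeR 4.0.16 (R 4.3.3; TMM, robust quasi-likelihood, 1 mean per group, each line fitted alone, both lines together for comparisons between them). Entries needed 5 CPM in 2 libraries, which left 463 in PC3 with 8 members, 552 in 22Rv1 with 7 and 613 over both lines with 8. Benjamini-Hochberg adjustment ran over all entries tested, with a threshold of 0.05. CPM in the text were scaled over all 47 libraries. Ratios used log2 of counts with 0.5 added to each. Alternatives were DESeq2 1.42.0, other scalings and filters, the replicate block, a joint fit, omission of each library and, chosen after seeing the data, omission of the libraries apart. Scripts were tested on simulated data.

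Within each O2 level, same-numbered hypoxia and normoxia libraries deviated together (correlations of 0.301 to 0.665 in PC3 and 0.113 to 0.397 in 22Rv1), so the numbers were taken to pair them. The pairing comes from these correlations and the replicate numbers of the titles. In tests of hypoxia effects the replicate block was formed by these pairs. Always named were the 8 members, 10 ratios, miR-210-3p, the 3 entries most like 3 members and the summed guides, and up to 4 of a related list by smallest p. Members and lists were chosen with earlier results of these data known. Counting error is only part of the spread: replicates differed by far more than sampling noise.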

Additional observations from a re-analysis of the deposited data

Results flagged for a closer look

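The responses of the lines differed for 2 members and 2 ratios, each by a test of the difference itself. The mean hypoxia effect on miR-181a-3p differed by log2 -1.07 (PC3 minus 22Rv1), from -0.46 in PC3 to 0.59 in 22Rv1. That on miR-181a-2-3p differed by log2 -0.52, from -0.17 to 0.33. The effect on the ratio of miR-181a-3p to miR-181a-5p differed by log2 -1.05, and that on the ratio of miR-181a-2-3p to miR-181a-5p by log2 -0.50. The call of miR-181a-2-3p was lost in 2 of 8 alternatives and in 19 of 47 omissions of 1 library. Both ratio calls were lost in 1 of 47 omissions, and their p-values measure spread among O2 levels within each line. In 22Rv1 miR-181a-3p rests on 11 to 168 counts a library. The 4 values are not independent, since the ratios contain the same 2 members.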

How the results depend on the processing

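With the replicate block, 16 of 48 single-level tests passed in PC3 (5 without it) and 5 of 42 in 22Rv1 (0 without it), 5 members passed the mean effect in 22Rv1 (3 without it), and 4 ratios passed in 22Rv1 (1 without it) and 4 in the line difference (2 without it). Over all entries the block raised the calls from 51 to 109 in PC3, from 75 to 158 in 22Rv1 and from 18 to 78 for the line difference, and those at single levels from 30 to 136 of 2778 in PC3 and from 54 of 3312 to 199 of 3288 in 22Rv1. It ended no call of a member. Single-level calls of members in PC3 fell to 1 with library totals alone, 0 with the authors' factors, 0 without the filter, 0 with both lines in 1 fit and 3 without the libraries apart. Mean-effect calls in 22Rv1 fell to 0 with library totals alone and 1 without the libraries apart. Line-difference calls fell to 1 with the 20 CPM filter and 1 without the libraries apart, and line-difference ratios rose to 4 with a pseudocount of 1. The cause was not tested. Omitting 1 library gave 1 to 6 single-level calls in PC3, 1 to 5 mean-effect calls and 1 to 3 ratios in 22Rv1, and 1 to 2 members and 0 to 6 ratios for the line difference. No value changed sign past the threshold. In PC3, 5 mean-effect calls became 4 to 6 in the alternatives and 5 to 6 in the omissions. Low counts limit miR-181b-3p in both lines and miR-181a-3p in 22Rv1.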
